A study of Homo sapiens with 3 samples.

Results

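MAX and BMAL1 binding was examined at 10 regulators of the cell cycle, namely WEE1, CDKN1A, CDKN1B, CDKN2B, CCND1, CCND2, CCND3, CDK4, CCNE1 and CDC25A. They were chosen as G1 and G2 regulators with known links to MYC or the clock, and they are 10 of the 20176 protein-coding genes annotated by GENCODE on hg19. A peak was counted at a gene when its summit lay in the gene body or within 20 kb of a transcription start site (TSS) of any of its transcripts. By this rule 23 of the 13650 listed MAX peaks and 2 of the 756 listed BMAL1 peaks belonged to the 10 genes.

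The chromatin came from MDA-MB-231, a human cell line from a triple-negative breast tumour, fixed in 1% formaldehyde over 10 min. It was precipitated with 4 µg of antibody against BMAL1 or MAX, and input chromatin was the control. There was 1 library per antibody and 1 input library from this 1 line, and the labels name no other condition, so no value has a replicate check. The libraries held 13866783 tags for BMAL1 and 11545865 for MAX, so a gene without a listed peak is one where none passed the cutoff at this depth.

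Progress through G1 depends on D-type cyclins bound to CDK4 or CDK6 and then on cyclin E bound to CDK2. CDKN1A and CDKN1B inhibit these kinases, and CDKN2B inhibits CDK4 and CDK6. The phosphatase CDC25A activates CDK2, and the kinase WEE1 holds back entry into mitosis. MAX is the obligate partner of MYC and also of repressors such as MNT, and BMAL1 pairs with CLOCK. Both kinds of complex bind the E-box CACGTG, and several of the genes examined here are textbook targets of MYC, of the clock or of both.

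The sequences below carry the main E-boxes found under the peaks. They are reference sequence of hg19, plus strand, with CACGTG (its own reverse complement) in capitals. The CDK4 stretch is the cluster of 3 E-boxes at the BMAL1 summit (chr12:58146272-58146374), and the others show the E-box closest to the summit of the strongest E-box-holding MAX peak of WEE1, CCND1, CCND2 and CCNE1.
CDK4: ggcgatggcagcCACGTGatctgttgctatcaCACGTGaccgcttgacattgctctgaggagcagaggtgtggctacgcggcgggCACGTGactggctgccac
WEE1 (chr11:9594384-9594413): ccaacgcatgccCACGTGctggcgaacaaa
CCND1 (chr11:69451417-69451446): acgcagggcaacCACGTGgcggtggaaccg
CCND2 (chr12:4381592-4381621): ccatgcccgctgCACGTGccagcttggcca
CCNE1 (chr19:30332644-30332673): gactttgttctcCACGTGgcatttgccagt

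MAX was listed at 9 of the 10 genes and BMAL1 at 1, CDK4. Over all protein-coding genes, 54.7% had a MAX summit and 4.97% a BMAL1 summit under the same rule, and this share depends on the length of the window, which ran from 42312 bp at CDKN1A to 152092 bp at CCND3. With the narrower rule of a peak within 300 bp of a TSS, 8 of the 10 genes had a MAX peak against 33.7% of protein-coding genes, and CDK4 alone had a BMAL1 peak against 1.63%. CDKN2B had no MAX peak under either rule, and CCNE1 had none within 300 bp of a TSS.

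The strength of each peak is given as the fold enrichment written by the peak caller. It divides the height of the stacked fragments at the summit by the local input background. That background has a genome-wide floor, 1.28 fragments for MAX and 1.54 for BMAL1, which is used where the local input is lower. Ranges in parentheses are exact Poisson 95% intervals of the pileup carried to the fold enrichment with the background held fixed, and cover counting error only. The median of the 23 MAX peaks was 11.6, with a 95% interval of 8.63 to 17.3 that contains the 9.73 of all MAX peaks. The 23 peaks ranged from 5.5 to 39.6. Of them, 15 lay above the median of the list (65.2%, exact binomial 95% interval 42.7% to 83.6%). Above 90% of the list lay 8, among them the sites nearest to the neighbouring genes LTO1, BYSL and METTL1. The intervals of the median and of the shares of peaks treat peaks as independent draws. Peaks of the same gene may not be, and CCND1 alone has 6 of the 23. All come from 1 library, so these intervals cover no spread between replicates.

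**Figure D1:**
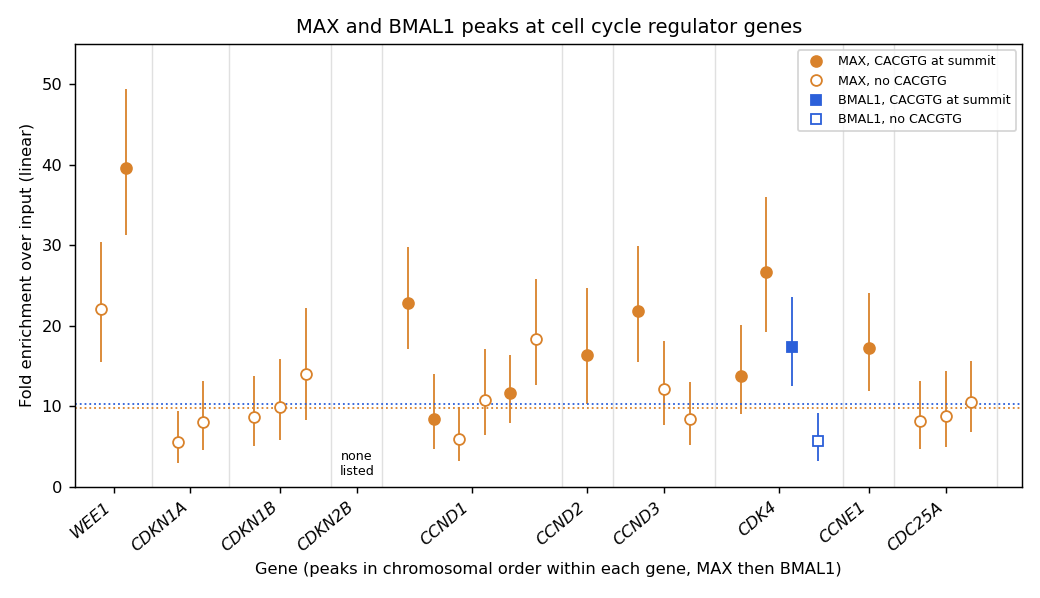
Fold enrichment over input of every MAX (circles) and BMAL1 (squares) peak at the 10 genes, with 95% counting intervals as bars, symbols filled where CACGTG lies in the 200 bp at the summit, and dotted lines at the medians of the whole lists (9.73 for MAX, 10.3 for BMAL1). The highest point is the WEE1 peak at 39.6, no peak was listed at CDKN2B, and the BMAL1 points stand only at CDK4.

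WEE1, the kinase that phosphorylates and restrains CDK1, carried the strongest MAX peak of the set. The peak (chr11:9594085-9595154) had 78 fragments at its summit and a fold enrichment of 39.6 (31.3 to 49.4), above 99.9% of MAX peaks. Its summit lay 806 bp upstream of the TSS, and the E-box printed above was centred 12.5 bp from it. Another MAX peak 7458 bp upstream (chr11:9587469-9588044) had a fold enrichment of 22.1 (15.5 to 30.4), and its summit window held none of the motifs searched. WEE1 is a known output of the clock in liver, but the BMAL1 list held no peak in its window and the nearest lay 173195 bp from a TSS. A CACGTG centred 26 bp upstream of the TSS and another 178 bp downstream were outside the MAX peak, which ended upstream of both.

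CDK4, the catalytic partner of the D-type cyclins, was the gene of the set with both factors at its promoter. By the wider window rule 4.81% of protein-coding genes had both factors, and the share with both at the promoter was not computed. Both of its BMAL1 peaks overlapped a MAX peak, as 84.1% of BMAL1 peaks did, and these were the only overlaps among the 23 MAX peaks (2 of 23, against 4.67% of the MAX list). The BMAL1 peak (chr12:58145940-58146597) had 42 fragments at its summit and a fold enrichment of 17.4 (12.5 to 23.5), above 83.1% of BMAL1 peaks. The MAX peak (chr12:58145632-58146512) had 26 fragments and a fold enrichment of 13.8 (8.98 to 20.1), above 82.5% of MAX peaks. CDK4 is transcribed from the minus strand. Relative to the TSS of its canonical transcript, the MAX summit lay 72 bp and the BMAL1 summit 220 bp upstream, a gap of 148 bp between summits.

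The promoter peaks of CDK4 were dense in E-boxes. The MAX peak spanned 5 CACGTG sites and the BMAL1 peak 4 of them, at 98, 193, 213 and 266 bp upstream of the canonical TSS. The 3 sites of the printed cluster were separated by 14 and 47 bases, and the middle one was centred 6.5 bp from the BMAL1 summit. The site nearest to the MAX summit was another, 26.5 bp away, in an untranslated exon annotated for CDK4. In the whole lists CACGTG was found in the 200 bp at 75.3% of BMAL1 summits (2.98% of windows 2 kb to either side), and 3 or more copies at 1.98% of BMAL1 and 0.183% of MAX summits. In that window the CDK4 promoter held 3 copies at the BMAL1 summit and 1 at the MAX summit.

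**Figure D2:**
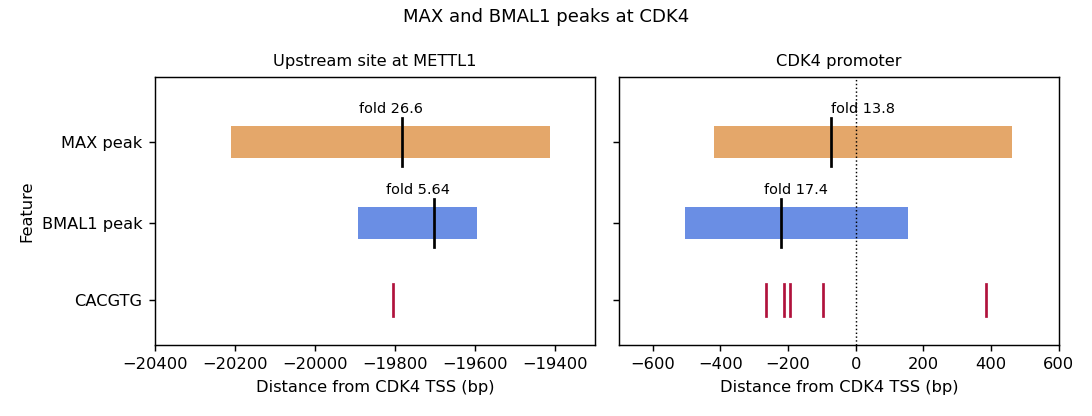
Extent of the MAX and BMAL1 peaks (bars), their summits (black lines) and CACGTG sites (red ticks) at CDK4, as distance in bp from the canonical CDK4 TSS with negative values upstream. At the promoter the BMAL1 peak covers the 4 upstream E-boxes and its summit sits in the cluster of 3, while at the METTL1 site the MAX peak (fold enrichment 26.6) is stronger than the BMAL1 peak (5.64).

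A second pair of overlapping peaks in the CDK4 window belonged by position to METTL1, which encodes a tRNA methyltransferase. The MAX peak (chr12:58165506-58166302) had 42 fragments and a fold enrichment of 26.6 (19.2 to 36.0), with its summit 8 bp from a METTL1 TSS and 19783 bp upstream of the canonical CDK4 TSS. The BMAL1 peak there (chr12:58165687-58165986) had 16 fragments and a fold enrichment of 5.64 (3.22 to 9.16), above only 5.29% of the BMAL1 list. Its interval did not overlap that of the CDK4 promoter peak. The BMAL1 summit window held 2 copies of CACGTT and no CACGTG, against 10.4% of BMAL1 summits with CACGTT. Of these copies, 1 was centred 0.5 bp from the summit. The BMAL1 peak did hold a CACGTG, but its centre was 103.5 bp off the summit, just past the window. In the overlapping MAX peak the same site fell within the summit window, at a distance of 23.5 bp.
METTL1, with CACGTT in capitals (chr12:58165782-58165811): ggttggagtgagCACGTTgccggtagtagc

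The pairs therefore differed in balance. BMAL1 fold enrichment over MAX fold enrichment was 1.27 at the CDK4 promoter, higher than at 77.2% of 636 overlapping pairs in the lists, whose median ratio was 0.793. Each of the 636 BMAL1 peaks that overlapped MAX was paired with 1 MAX peak. Since 637 MAX peaks overlapped BMAL1, some further overlaps are left out. At the METTL1 site it was 0.212, the lowest of the 636 pairs, with the next at 0.222 and 0.238. That place is not firm, because the BMAL1 value rests on 16 fragments (5.64, 3.22 to 9.16). These are values of a single library for each antibody. The input is shared, but each peak is divided by its own background, which can differ within a pair. The ratio also depends on the yield of each antibody.

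**Figure D3:**
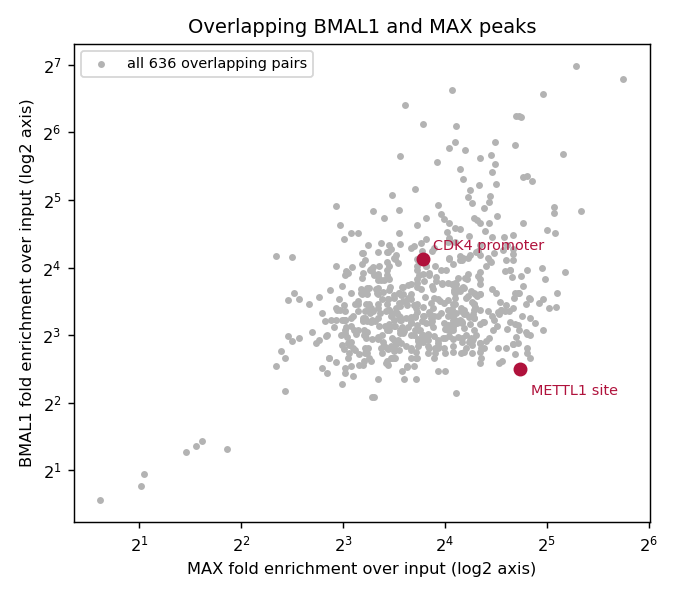
BMAL1 against MAX fold enrichment over input, both on log2 axes, for the 636 pairs of overlapping peaks (grey) with the pairs in the CDK4 window in red. The CDK4 promoter (13.8 for MAX, 17.4 for BMAL1) lies inside the main cloud and the METTL1 site (26.6 and 5.64) at its lower right edge.

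The D-type cyclin genes, whose products bind and activate CDK4 and CDK6, had 10 MAX peaks and no BMAL1 peak. CCND1 held 6 of them. The strongest (chr11:69451007-69451755) lay 4531 bp upstream of the TSS, with 54 fragments and a fold enrichment of 22.9 (17.2 to 29.8), above 97.8% of MAX peaks, and its E-box was centred 38.5 bp from the summit. The other 5 CCND1 peaks ranged from 5.92 to 18.4, and 2 of them held CACGTG at the summit. The peak at 18.4 (chr11:69469114-69469802) overlapped the end of the gene with its summit past it. The nearest TSS of a protein-coding gene there was that of LTO1, 3718 bp away. No CCND1 peak had its summit within 1 kb of the canonical TSS, and the intronic pair nearest to it on the downstream side lay 2453 and 3274 bp into the gene. The first of these, at 10.8, was 103 bp from the TSS of another CCND1 transcript.

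CCND2 had a MAX peak alone (chr12:4381436-4382262), with 22 fragments and a fold enrichment of 16.3 (10.2 to 24.7). It was 1299 bp upstream of the canonical TSS, in an intron of a longer transcript, and spanned 2 CACGTG sites separated by 165 bases. At CCND3 the strongest peak (chr6:41888626-41889554, fold enrichment 21.9, 15.5 to 29.9) was 5 bp from a TSS of BYSL, a ribosome biogenesis gene, and 16721 bp from the nearest CCND3 TSS. The peaks nearer to a CCND3 TSS had fold enrichments of 12.1 and 8.46, and neither held CACGTG at the summit. They lay 104083 and 106814 bp upstream of the canonical CCND3 TSS. The peak at 8.46 was 54 bp from a TSS of another CCND3 transcript. The peak at 12.1 was 2643 bp from such a TSS, in an intron of CCND3. No MAX peak in the window was closer to the canonical TSS than the BYSL peak, 20263 bp from it. The nearest BMAL1 peak to CCND3 lay 42251 bp from a TSS, outside the window.

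CCNE1 and CDC25A, which act at the G1 to S transition, were bound in different places. The single MAX peak of CCNE1 (chr19:30332360-30332925, fold enrichment 17.3, 11.95 to 24.1) lay 19959 bp downstream of the nearest CCNE1 TSS, that of a non-coding transcript, and so just inside the window. From the canonical TSS it was 29700 bp. Its summit was past the end of CCNE1, in a non-coding transcript of another gene. Just outside the window, 22576 bp from a CCNE1 TSS, lay a BMAL1 peak (chr19:30335167-30335466) with 15 fragments and a fold enrichment of 7.34, overlapped by a MAX peak of 25.4. CDC25A had 3 MAX peaks within 1 kb of a TSS, at 10.6 (6.85 to 15.6) for the promoter peak (chr3:48229674-48230295), with its summit 140 bp upstream, and at 8.75 and 8.12 for a pair in the first part of the gene. None of the 3 held CACGTG at the summit, and the intronic pair held CATGTG.

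The inhibitor genes had MAX peaks between 5.5 and 14.0, or none. At CDKN1A, which encodes p21, a peak 13 bp from a TSS (chr6:36646251-36646554) had 13 fragments and a fold enrichment of 5.5 (2.93 to 9.41), above 3.27% of MAX peaks. Its -log10 p of 6.66 is under the 8 that the stated methods ask for, and without such peaks CDKN1A has none within 300 bp of a TSS. The same threshold leaves 7 of the 10 genes with a MAX peak that close to a TSS, against 31.6% of protein-coding genes. The other CDKN1A peak, intronic, had a fold enrichment of 8.06 (4.61 to 13.1). CDKN1B, which encodes p27, had a peak 52 bp from its canonical TSS (chr12:12869708-12870481) at 9.92 (5.78 to 15.9) and another at an upstream TSS at 8.63. The strongest peak in its window (chr12:12878638-12879011, 14.0, 8.32 to 22.2) fell on a TSS of the neighbouring gene APOLD1. None of the 5 peaks held CACGTG at the summit, and BMAL1 peaks were 1963757 bp from CDKN1B and 2982025 bp from CDKN1A.

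CDKN2B, which encodes p15, had neither factor, and the surroundings were empty too. The MAX peaks on either side lay 7765237 bp apart, a gap longer than 99.9% of the 13627 gaps between neighbouring MAX peaks and one that holds 31 protein-coding genes, CDKN2A among them. The line is widely described as having lost the CDKN2A and CDKN2B region of chromosome 9. Input reads in this region were not examined, so missing DNA and missing binding cannot be told apart.

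**Figure D4:**
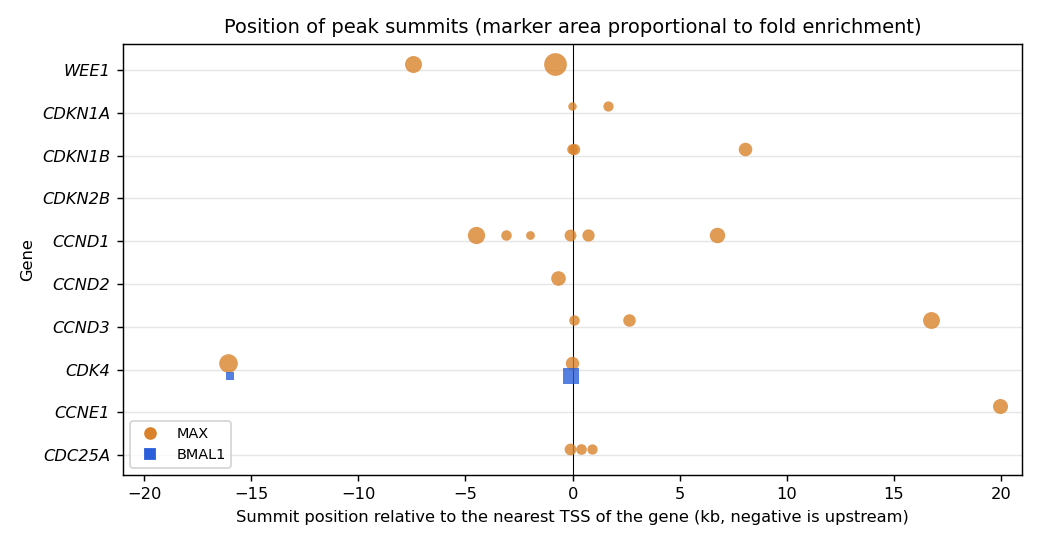
Summits of MAX (circles) and BMAL1 (squares) peaks along the distance in kb to the nearest TSS of each gene, negative values being upstream, with marker area proportional to fold enrichment. CDKN1A, CDKN1B, CCND1, CCND3, CDK4 and CDC25A each have a MAX summit next to a TSS. At CCND1 and CCND3 this TSS is not the canonical one. The WEE1 and CCND2 summits lie upstream, and the CCNE1 peak lies at the edge of the window.

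Ordered by the strongest MAX peak in the window, the genes ran WEE1 (39.6), CDK4 (26.6), CCND1 (22.9), CCND3 (21.9), CCNE1 (17.3), CCND2 (16.3), CDKN1B (14.0), CDC25A (10.6) and CDKN1A (8.06). The counting intervals of each pair of neighbours in this order overlapped. Those of WEE1 and CCND1 did not. Of the 23 MAX peaks, 19 lay nearest to a TSS of the same gene among all TSSs of protein-coding genes, those of non-coding transcripts included. The CCNE1 peak counts through such a transcript, although its summit lies in a non-coding transcript of another gene. The other 4 are the peaks at LTO1, APOLD1, BYSL and METTL1 described above. Counted on those 19 alone, the median fold enrichment was 10.6 and 9 genes still had a MAX peak, but the order changed to WEE1 (39.6), CCND1 (22.9), CCNE1 (17.3), CCND2 (16.3), CDK4 (13.8), CCND3 (12.1), CDC25A (10.6), CDKN1B (9.92) and CDKN1A (8.06). CDK4 moved from place 2 to place 5, since its value of 26.6 is that of the METTL1 site, and in this order the intervals of WEE1 and CCND1, now neighbours, did not overlap.

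CACGTG occurred in the 200 bp at the summit of 9 of the 23 MAX peaks (39.1%, exact binomial 95% interval 19.7% to 61.5%), beside 21.2% of all MAX peaks and 2.53% of windows 2 kb to either side of them. The 9 peaks had a median fold enrichment of 17.3 and the other 14 a median of 9.34, where the whole list gives 11.6 with and 9.35 without CACGTG. All 9 were at WEE1, CDK4, CCNE1 and the D-type cyclin genes, the METTL1 and BYSL sites included. Close variants were searched as well, on both strands. CACGTT (or AACGTG) was at 2 of the 23 summits, CACGCG (or CGCGTG) at 3 and CATGTG (or CACATG) at 4, with 6.04%, 13.2% and 16.7% over all MAX summits. A summit can hold more than 1 motif, and 10 of the 23 held none of the 4.

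Most E-boxes near these genes were not under a listed peak. The windows of the 10 genes held 82 CACGTG sites, of which 14 (17.1%) lay inside a MAX peak and 5 inside a BMAL1 peak, against 2.52% and 0.443% of the sites in the windows of all protein-coding genes. CDK4 supplied 6 of the 14 and all 5. CCND3 had the most sites, 19, with 2 inside MAX peaks, and CCND1 had 3 of 18. At WEE1 the MAX peak held 1 of 7 sites. The E-box in the CCNE1 peak is not among its 4 sites because it falls just past the window. In the 300 bases from 250 upstream to 50 downstream of the canonical TSS, CACGTG was present only at WEE1 and CDK4 (2 of 10 genes, and 8.76% of 19894 protein-coding genes).

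**Figure D5:**
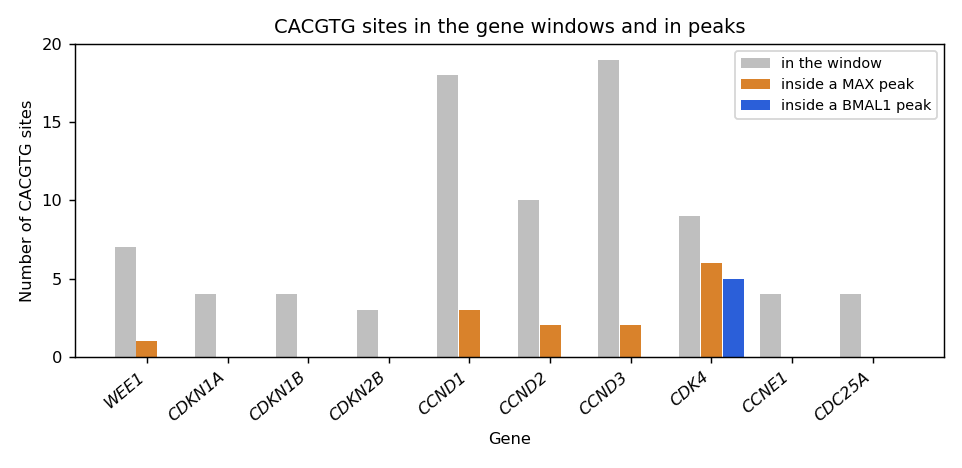
Number of CACGTG sites in the window of each gene (grey) and of those inside a MAX peak (orange) or a BMAL1 peak (blue). CDK4 has 6 of 9 sites inside MAX peaks and 5 inside BMAL1 peaks, and the other genes have at most 3 inside MAX peaks and none inside BMAL1 peaks.

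Among 35 other genes of the same transitions, which include further cyclins, kinases, phosphatases, inhibitors and RB and E2F family genes, 30 (85.7%) had a MAX peak in the window and 26 had one within 300 bp of a TSS, beside 54.7% and 33.7% of protein-coding genes. The 5 without were CDK1, CDK2, CCNA1, CCNH and CDKN2A. Of the 64 MAX peaks in these windows, 39 lay nearest to a TSS of the gene itself. At CDK7, CDC25C, WEE2, E2F1 and E2F4 every MAX peak in the window was nearer to a TSS of another protein-coding gene. BMAL1 was listed at 2 of the 35, a share near the 4.97% of protein-coding genes. At CDK6, the other kinase of the D-type cyclins, an intronic BMAL1 peak (chr7:92370015-92370369) had 21 fragments and a fold enrichment of 13.6 (8.44 to 20.8) and overlapped a MAX peak of 17.2, 15171 bp upstream of the nearest CDK6 TSS. At CDC25B, a phosphatase acting at G2, BMAL1 peaks lay 5546 and 9137 bp downstream of a TSS, with fold enrichments of 32.9 and 98.6. The stronger of them was nearer to a TSS of AP5S1, 8618 bp away.

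The gene with the strongest BMAL1 peak of the set, CDK4, was compared with all other protein-coding genes by the fold enrichment of the strongest MAX and the strongest BMAL1 peak in each window. CYP27B1, EEF1AKMT3, MARCHF9 and METTL1 were at a distance of 0, because their windows hold the same peaks. The next were ATIC (25.4 for MAX and 17.4 for BMAL1, a distance of 0.07 on the log2 scale) and the neighbours LDHA and LDHC (25.4 and 18.3, 0.10). The likeness rests on 2 values, and at CDK4 they come from different sites.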

How the data were processed

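BMAL1 and MAX binding was measured by ChIP-seq in MDA-MB-231 cells, in 1 library per antibody. The authors aligned reads on hg19 with BWA 0.6.2 and called peaks with MACS2 2.0.9, each antibody separately against the same input. Per the file headers, the pileup is the signal of tags extended to 300 bp at the summit, not scaled to depth. The fold enrichment deposited for each peak is the ratio of the pileup to the local input background, or to the genome-wide floor where that is higher. The authors also deposited the -log10 p-value and q-value that the peak caller gave. The p-value cutoff is 1e-05 in the headers and 1e-08 in the methods, and no listed peak was dropped. At most 2 tags per position were kept for BMAL1 and 1 for MAX, which left 13866783 of 13866783 and 11545865 of 11545974 tags, with 29308882 for the input.

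Peaks were assigned to genes by the GENCODE transcripts (release 44, lifted to GRCh37, which is hg19). CACGTG was counted in 200 bp centred on the summit. Overlap meant at least 1 bp. With 1 library per antibody no test between groups was made, and the counts stand beside the same counts over all genes or peaks. The genes and lists were chosen with earlier results of these data known. All 10 genes are named, with every BMAL1 peak and the strongest MAX peak of each, pathway genes with a BMAL1 peak, genes whose TSS is nearer to a peak, and the 3 genes most like the one with the strongest BMAL1 peak. The alternatives covered the window, the transcripts, the summit rule, the p-value threshold, the E-box definition and the overlap. Counting only peaks nearest to a TSS of the gene, among all TSSs of protein-coding genes, was added after seeing the data. So was a -log10 p of at least 8 with the 300 bp rule. The assignment code was run on simulated summits placed inside the windows or off the chromosomes. That check cannot show how summits just outside a window are handled. Scripts ran in Python 3.11.15 (pandas 2.3.3, numpy 2.4.6, pysam 0.24.0, scipy 1.17.1) and figures were drawn with matplotlib 3.10.9.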

Additional observations from a re-analysis of the deposited data

How the results depend on the processing

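With 11 exceptions, the 51 alternative values of the counts, shares and median stayed close. Close meant within 1.5 times the reported count, or within the 95% interval of the reported share or median. The BMAL1 shares rest on 2 peaks, so intervals of 1.26% to 98.7% (CACGTG) and 15.8% to 100% (overlap) can show little. An overlap of 50%, with summits within 100 bp, still counted as close. The median ran from 9.92, with summits within 5 kb of a TSS, to 17.3 for the strongest peak of each gene. Its interval is 8.63 to 17.3. MAX peaks at the genes numbered 10 when a peak had to lie within 300 bp of a TSS. BMAL1 peaks numbered 1, the CDK4 promoter peak, with summits within 5 kb of a TSS and with peaks within 300 bp of a TSS. The same held at a -log10 p of at least 12, and with peaks nearer to a TSS of another protein-coding gene left out. Each of these drops the METTL1 site. BMAL1 peaks numbered 4, at 3 genes (CDK4, CCND3 and CCNE1), with a window of 50 kb. The share of BMAL1 peaks with CACGTG rose from 50% to 100% at a -log10 p of at least 12, with the whole peak searched, with CACGTT counted as well, and for the peak nearest to CDK4 alone. The number of genes with a MAX peak was 8 without non-coding TSSs and within 5 kb, where CCNE1 was lost, and 8 at a -log10 p of at least 12, where CDKN1A was lost. No paired analysis was possible because each antibody has 1 library. Depth limits the weaker peaks, of which the lowest here rested on 13 fragments, and the window rule assigns some peaks to a neighbour of the gene that they lie on.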

Other observations

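The strongest MAX peaks among the 35 other cell cycle genes, picked here after their values were seen, were at CCNE2 and CCNB1. The peak in the CCNE2 window had 100 fragments and a fold enrichment of 48.1 (39.1 to 58.5), but its summit was 12 bp from a TSS of NDUFAF6 and 525 bp upstream of the nearest CCNE2 TSS. The peak of CCNB1, the cyclin that drives entry into mitosis, lay 32 bp upstream of a TSS with a fold enrichment of 28.1 (19.7 to 38.8). Neither held CACGTG in the 200 bp at its summit. The 64 MAX peaks in the windows of these 35 genes had a median fold enrichment of 11.2, and 14 of them (21.9%, exact binomial 95% interval 12.5% to 34.0%) held CACGTG.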
